A study of Mus musculus with 8 samples.

Results

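The heat shock proteins and their DnaJ co-chaperones are 72 of the 40800 genes in the deposited table. They were taken by name: every gene symbol that begins with Hspa, Hspb, Hspd, Hspe or Hsph and a number, with Hsp90, or with Dnaja, Dnajb or Dnajc and a number, apart from 10 pseudogenes marked -ps. Dorsal root ganglia lie along the spinal cord and hold the cell bodies of the sensory neurons of the trunk and limbs, and their total RNA was sequenced in 8 mice aged 6 months. The 4 wild types, numbered 1, 3, 4 and 8, were C57BL/6, and the 4 mutants, numbered 1 to 4, were homozygous for a gene trap in Tmem184b on a C57BL/6 background. Such a trap inserts a cassette whose splice site takes over the transcript and cuts it short in every cell that uses the gene, so the mutation was not limited to neurons or to adult life. The labels give no sex, litter or dissection time.

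Chaperones keep proteins folded and refold or pass on those that are not. Hsp70 proteins bind short stretches of unfolded protein and release them as they use ATP, J-proteins (the Dnaj families) bring the client and start that cycle, Hsp110 proteins exchange the nucleotide, and Hsp90 finishes kinases, receptors and other clients. Small heat shock proteins hold unfolded protein without ATP, and the mitochondrial chaperonin folds imported protein in a closed chamber. In sensory neurons, whose axons are long, Hspb1 and Hspb8 are known as genes of inherited motor and sensory neuropathy. The cytosolic heat shock response is driven by the factor Hsf1 at heat shock elements, and the endoplasmic reticulum has its own response with Hspa5 (BiP) as its usual reporter.

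The promoters are shown first because the cytosolic and the endoplasmic reticulum responses are known to act through promoter elements, which some members hold. Each sequence is the 250 bases before the annotated start site, 5′ to 3′ on the gene's strand, from RefSeq on GRCm38.p6. Of the 72 members, 58 were matched by symbol, and Hspa8 was not among them. Capitals mark matches on either strand to a heat shock element of 2 units (GAANNTTC or TTCNNGAA) for Hspb1 and Hspa1b, to one of 3 units (GAANNTTC followed by NNGAA, or TTCNNGAA followed by NNTTC, so that it contains the 2-unit form) for Hspe1, and to the endoplasmic reticulum stress element (CCAAT, 9 bases of any kind, then CCACG, so that it contains a CCAAT box) for Hspa5. Hspb1 and Dnajc19 are shown because they passed the test, and the other 3 as examples of each element.
Hspb1, chr5:135887669-135887918, plus strand: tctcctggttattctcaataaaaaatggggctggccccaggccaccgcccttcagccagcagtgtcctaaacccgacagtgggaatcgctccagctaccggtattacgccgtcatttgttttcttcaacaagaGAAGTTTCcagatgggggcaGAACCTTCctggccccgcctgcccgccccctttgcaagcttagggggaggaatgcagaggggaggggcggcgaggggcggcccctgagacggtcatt
Dnajc19, chr3:34081355-34081604, minus strand: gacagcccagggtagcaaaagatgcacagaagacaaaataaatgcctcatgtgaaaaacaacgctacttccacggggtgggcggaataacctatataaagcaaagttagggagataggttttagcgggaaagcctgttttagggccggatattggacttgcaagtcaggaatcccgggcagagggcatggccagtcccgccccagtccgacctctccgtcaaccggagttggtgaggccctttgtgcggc
Hspe1, chr1:55087898-55088147, plus strand: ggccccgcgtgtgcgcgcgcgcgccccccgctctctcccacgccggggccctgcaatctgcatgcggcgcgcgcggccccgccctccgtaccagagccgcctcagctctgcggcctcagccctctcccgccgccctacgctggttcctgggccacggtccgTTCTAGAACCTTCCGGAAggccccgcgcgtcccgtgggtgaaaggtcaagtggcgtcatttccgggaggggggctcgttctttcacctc
Hspa1b, chr17:34959239-34959488, minus strand: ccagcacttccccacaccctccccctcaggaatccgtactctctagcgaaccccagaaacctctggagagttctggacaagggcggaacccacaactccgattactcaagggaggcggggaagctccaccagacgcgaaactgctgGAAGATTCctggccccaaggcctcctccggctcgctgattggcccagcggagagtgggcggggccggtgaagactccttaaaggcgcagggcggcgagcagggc
Hspa5, chr2:34771840-34772089, plus strand: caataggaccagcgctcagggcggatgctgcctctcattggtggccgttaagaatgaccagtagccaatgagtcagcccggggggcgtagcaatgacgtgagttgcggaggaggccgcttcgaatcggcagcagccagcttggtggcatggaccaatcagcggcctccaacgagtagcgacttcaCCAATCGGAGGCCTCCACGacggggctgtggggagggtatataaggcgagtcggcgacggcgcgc

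The Hspb1 window holds 2 of the 2-unit matches, which start 117 and 97 bases before the start site. In the Hspe1 window a pair of overlapping 3-unit matches start 89 and 84 bases before it. Hspd1 runs on the other strand and overlaps the start of Hspe1 in the annotation, so these matches also lie within the annotated span of Hspd1. Hspa1b has 1 match at 104 bases and Hspa5 has 1 at 65 bases. The Dnajc19 window has no match to either kind of heat shock element or to the endoplasmic reticulum element. The 3-unit element was found in 3 of the 58 members (5.17%; Dnajb6, Hspd1 and Hspe1) and in 0.514% of the promoters of 27025 genes. The 2-unit element was found in 14 members (24.1%) and in 14.6% of all genes. The endoplasmic reticulum element was found in 3 members (5.17%; Dnajc3, Hsp90b1 and Hspa5) and in 0.130% of all genes, while a CCAAT box alone was found in 39.7% and 37.5%. None of the 3 tested members with the 3-unit element, none of the 3 with the endoplasmic reticulum element and 1 of 13 with the 2-unit element (Hspb1) passed the test between genotypes. Of matched members without the 2-unit element 1 of 38 passed (Dnajc19), beside 5.46% of all tested genes. Median log2 differences were 0.07 with and 0.06 without the 2-unit element. A match of letters describes the window and does not show binding.

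Library totals were 6183618 to 7983821 reads. Levels are given in CPM (reads per 1000000 reads of the library), computed from reads recovered from the deposited log2 values, and differences are on the deposited log2 scale, mutant minus wild type, tested with limma and adjusted by Benjamini-Hochberg over the 15030 genes with log2 CPM above 0 in at least 4 libraries. Tmem184b, the trapped gene, had a level of 171 ± 8.44 CPM in wild types against 6.65 ± 1.30 CPM in mutants (SD, n = 4), a difference of -4.64 (SE 0.113; limma adjusted p = 2.57e-12). Of all tested genes, 820 passed an adjusted p of 0.05, 423 higher and 397 lower, and their split depended on scaling: 204 and 706 after centring on the median, 271 and 422 after quantile normalization, and 257 and 604 after removal of a GC trend. The neuronal markers Tubb3 (2434 to 2924 CPM) and Uchl1 (1071 to 1444 CPM) were high in every library, as the tissue label states. In whole tissue, a change in the number of cells of a type and a change in RNA per cell cannot be told apart. The p-values rest only on the spread between these 8 mice, with each gene's variance drawn toward that of tested genes of like level.

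Chaperone transcripts of the mutant ganglia were mostly close to the wild-type level. Of 64 members with enough reads to test, 2 were higher by the limma test, Hspb1 and Dnajc19, and 0 were lower. Over all tested genes 2.81% were called higher and 2.64% lower, 5.46% in all. Without adjustment 5 members were higher and 5 lower at p under 0.05. Of all 15030 tested genes 2122 were higher and 1084 lower at that limit, 21.3% in either direction. Limma's voom on the recovered reads called 2 members higher and 1 lower. The median difference of the 64 was 0.04 on the log2 scale beside 0.07 for all genes. Differences ran from -1.09 (Hspa8) to 0.69 (Hspb7), and 46 of 64 members (71.9%) lay within 0.2 of no difference, beside 63.4% of all genes. The groups did not overlap for 9 members (14.1%), 6 higher and 3 lower. Over all tested genes they did not overlap for 12.4%, 1127 higher and 739 lower. The share of members is near the background.

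**Figure D1:**
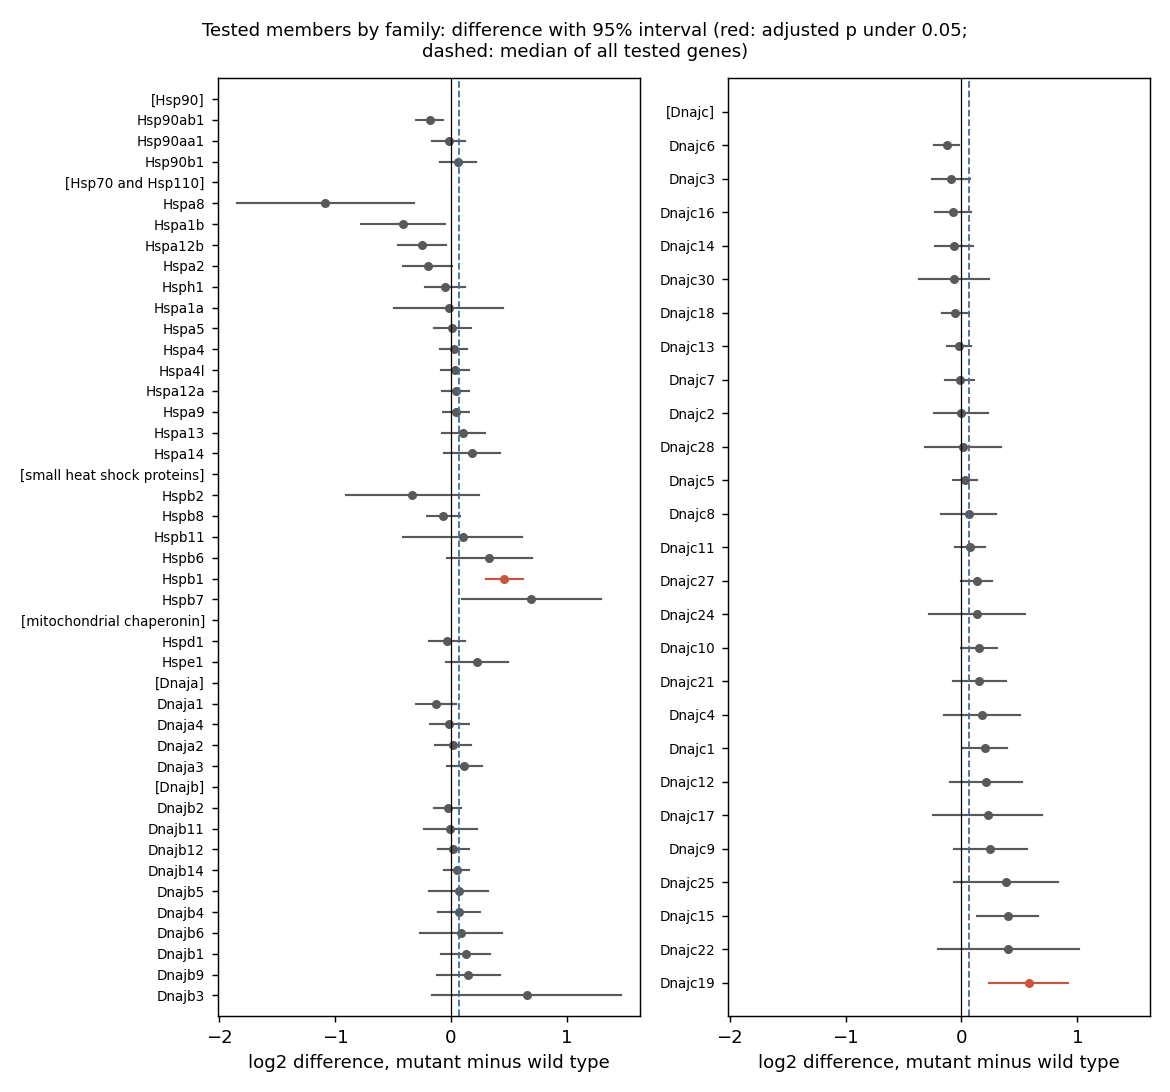
Log2 difference in CPM, mutant minus wild type (x axis), of the 64 tested members grouped by family (y axis); points are the fitted differences, lines their 95% intervals, red marks an adjusted p under 0.05 and the dashed line is the median of all tested genes. Most points lie within 0.2 of 0, only Hspb1 and Dnajc19 are red, and Hspa8 has the lowest value, -1.09, with a wide interval.

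By family, the numbers tested and called were 3 and 0 for Hsp90, 13 and 0 for Hsp70 with Hsp110, 6 and 1 for the small heat shock proteins, 2 and 0 for the mitochondrial chaperonin, 4 and 0 for Dnaja, 10 and 0 for Dnajb, and 26 and 1 for Dnajc. The family medians were -0.02, 0.01, 0.22, 0.09, 0.00, 0.07 and 0.10 on the log2 scale in that order. The 8 members not tested were Dnajb7, Dnajb8, Dnajb13, Dnajc5b, Dnajc5g, Hspa1l, Hspb3 and Hspb9, which had 0 to 7 reads a library. Dnajc5g, a relative of the cysteine string protein, had 0 reads in all 8, which allows up to 0.376 to 0.485 CPM, a limit for counting error only.

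Levels between genes were compared as CPM per kilobase of annotated exon, averaged over the 8 libraries. The highest was Hsp90ab1, the constitutive cytosolic Hsp90, at 713. Next came Hspb8 at 136, Hspa8 at 106 and Hspa12a, a distant Hsp70 relative, at 93.9. The stress-inducible cytosolic Hsp90, Hsp90aa1, was at 63.0, and the endoplasmic reticulum chaperones Hspa5 and Hsp90b1 were at 59.2 and 57.4. Hspb1 was at 45.5, while the heat-inducible Hspa1a and Hspa1b were at 1.33 and 3.22. On this scale the constitutive Hspa8 lay far above the inducible Hsp70 genes.

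Among small heat shock proteins, Hspb1 rose in the mutant. Hspb1 (ENSMUSG00000004951; GRCm38 chromosome 5, 135887919 to 135889563, plus strand) encodes the protein known as Hsp25 in mice, a client-holding chaperone of the cytoskeleton. Its level was 39.2, 41.6, 39.3 and 37.5 CPM in wild types 1, 3, 4 and 8. It was 52.4, 52.2, 52.0 and 60.8 CPM in mutants 1 to 4. Every mutant was above every wild type, and the 3 lower mutants lay close together with mutant 4 above them. The means were 39.4 ± 1.67 and 54.4 ± 4.27 CPM (SD, n = 4), a log2 difference of 0.46 (SE 0.0744; limma adjusted p = 0.00298), or 38.0% more CPM. Over 20 alternatives the difference stayed between 0.37 and 0.49 and the limma adjusted p between 0.00162 and 0.0442. Without mutant 4 it was 0.41 (limma adjusted p = 0.00726). A pair of near-identical copies, Gm9817 and Hsp25-ps1, together had at most 0.593 CPM.

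Glial markers were examined beside Hspb1, since whole ganglia hold several cell types. Of 6 satellite glia markers 1 rose, Glul (glutamine synthetase; 0.49, SE 0.0977; limma adjusted p = 0.0101), and 0 fell. Their summed level was 1804 to 2206 CPM in wild types and 1989 to 2794 in mutants. Of 6 markers of myelinating Schwann cells 2 rose, Ncmap and Drp2, and 0 fell, with sums of 2419 to 3162 and 2856 to 3437 CPM. Of 8 pan-neuronal markers 1 fell, Avil, with sums of 8218 to 9052 and 8233 to 8875 CPM. The defining markers of all 3 lists were above 0 in every library. Of the fibroblast markers 1 of 6 tested rose (Dcn, sums of 611 to 1222 and 794 to 1177 CPM), as did 1 of 5 macrophage markers (Cd163, 28.8 to 41.9 and 37.9 to 62.9 CPM). None of the 5 endothelial, 5 smooth muscle and pericyte or 5 red blood cell markers was called. Median log2 differences of the marker lists were 0.23 for satellite glia, 0.24 for myelinating Schwann cells, 0.30 for fibroblasts and 0.32 for macrophages. For smooth muscle and pericytes the median was 0.45, and for the skeletal muscle markers given below 1.60. It was -0.06 for the pan-neuronal list, 0.05 for endothelial and 0.07 for red blood cell markers, beside 0.07 for all tested genes. The part of these cells in the Hspb1 result was not tested.

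The other tested small heat shock genes did not pass. Hspb8, the most abundant of the family, was 268, 285, 246 and 286 CPM in wild types and 243, 256, 250 and 288 CPM in mutants (-0.07, 95% interval -0.21 to 0.07). Those ranges overlapped almost fully. Hspb7, a gene of striated muscle, was 0.635, 1.38, 1.04 and 1.01 CPM in wild types and 2.09, 1.78, 1.23 and 2.15 CPM in mutants (0.69, SE 0.28; limma adjusted p = 0.165), from 4 to 15 reads a library. Mutant 3 lay within the wild-type range and the other mutants above it. Summed skeletal muscle markers were 38.4, 82.9, 58.2 and 57.3 CPM in wild types and 62.7, 99.8, 93.9 and 240 CPM in mutants, with 0 of 9 tested markers called and the defining marker Ckm at 0 reads in wild type 1. Much of the wild-type sums came from Pvalb (33.98 to 44.07 CPM in wild types), which proprioceptive sensory neurons also express. Without Pvalb, a choice made after its values were seen, the sums were 4.45, 41.7, 14.4 and 13.3 CPM in wild types and 13.15, 54.0, 47.4 and 179 CPM in mutants. Their part in the Hspb7 value was not tested. Hspb2, which overlaps Cryab on the other strand, had 4 to 12 reads a library, with mutants at 0.647 to 1.29 CPM below wild types at 1.33 to 1.52 (-0.33, SE 0.268; limma adjusted p = 0.515). Cryab, the alpha B-crystallin relative of this family, differed by -0.03 (limma adjusted p = 0.927).

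**Figure D2:**
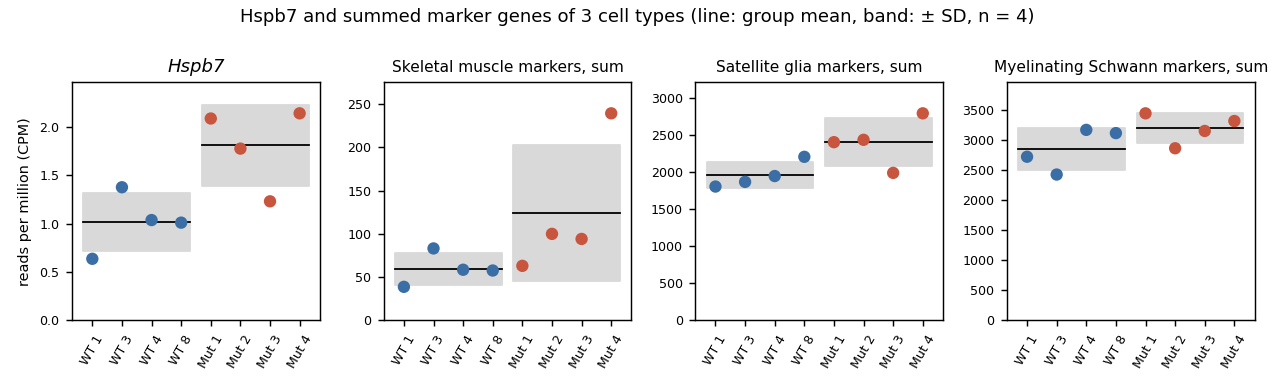
Level of Hspb7 and summed levels of skeletal muscle, satellite glia and myelinating Schwann cell markers (y axis, CPM) in each library (x axis; WT, wild type; Mut, mutant), with the group mean as a line and ± SD as a band (n = 4). Mutant 4 has the highest muscle sum, 240 CPM, and the highest satellite glia sum, 2794 CPM.

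In the Hsp70 family no gene passed, and Hspa8 was the widest-ranging. Hspa8 (ENSMUSG00000015656; chromosome 9, 40800984 to 40810087, plus strand) encodes Hsc70, the constitutive cytosolic Hsp70 that also uncoats clathrin vesicles. Its level was 623, 658, 365 and 705 CPM in wild types 1, 3, 4 and 8, and 605, 382, 132 and 170 CPM in mutants 1 to 4. Mutant 1 was at the wild-type level, wild type 4 was below mutant 2, and mutants 3 and 4 were far below every other library. The range over the libraries was 5.33-fold, with at least 859 reads in each. The means were 588 ± 152 and 322 ± 218 CPM (SD, n = 4), a difference of -1.09 (SE 0.358, 95% interval -1.85 to -0.32). The unadjusted limma p was 0.00858, but the gene did not pass after adjustment (limma adjusted p = 0.0922). The exact two-sided permutation p was 0.114, and the groups overlapped.

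Hspa8 was called in 3 of 20 alternatives, among them the fits without wild type 4 (-1.30; limma adjusted p = 0.0450) and without mutant 1 (-1.48; limma adjusted p = 0.0203). Over the 20 alternatives the limma adjusted p ran from 0.0203 to 0.329 with differences of -1.48 to -0.75. Hspa8 has 6 near-identical copies in the annotation (at least 95% identity over at least 150 bases), of which 4 are in the table. They held at most 3.003 CPM together and at most 1.86% of the Hspa8 level in any library, and the difference of the summed level was -1.07. Small nucleolar RNA genes (Snord14c, Snord14d and Snord14e) lie within Hspa8. Of the 100 tested genes whose log2 CPM followed Hspa8 most closely, in either direction, 7 lie within 10 megabases of it on chromosome 9. The listing was chosen after the Hspa8 values were seen, and that window holds 0.97% of tested genes with a position. Whether the libraries differ in genetic background there was not tested.

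The inducible cytosolic Hsp70 pair did not pass. Hspa1b was 13.2, 8.02, 10.2 and 9.98 CPM in wild types and 7.02, 9.22, 8.31 and 6.15 CPM in mutants (-0.41, SE 0.171; limma adjusted p = 0.176). Hspa1a was 3.01 to 4.76 CPM in wild types and 2.93 to 5.23 CPM in mutants (-0.02, 95% interval -0.49 to 0.45). These genes are 99.2% identical over 2201 aligned bases, so how reads were divided between them is uncertain. Their summed level differed by -0.28 on a log2 scale with 0.25 CPM added. The ranges overlapped for each gene.

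Hspa5, Hspa9, Hspa12a and Hsph1 did not pass either, with values close to 0. Hspa5, the luminal Hsp70 of the endoplasmic reticulum, was 234 to 265 CPM in wild types and 213 to 271 CPM in mutants (0.01, 95% interval -0.14 to 0.17). Hspa9, the mitochondrial Hsp70 or mortalin, differed by 0.05 (95% interval -0.07 to 0.16), and Hspa12a by 0.04 (95% interval -0.07 to 0.15). Hsph1, the inducible Hsp110 nucleotide exchange factor, differed by -0.05 (95% interval -0.23 to 0.12). The sign of each of these 4 values turned under at least 1 alternative, and none was called in any. Of the 13 tested genes of the family, 0 were higher and 3 lower at an unadjusted limma p under 0.05. Over all 15030 tested genes 2122 were higher and 1084 lower, 21.3% in either direction. The 3 were Hspa8, Hspa1b and Hspa12b (-0.25, 95% interval -0.45 to -0.04, limma adjusted p = 0.152).

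Hsp90ab1 separated the genotypes by a small amount without passing. Its level was 2319, 2301, 2235 and 2234 CPM in wild types and 2088, 2055, 1901 and 1966 CPM in mutants. Every mutant was below every wild type, with 12345 to 18371 reads a library. The means were 2272 ± 44.0 and 2003 ± 85.2 CPM (SD, n = 4), a difference of -0.18 (SE 0.0540; limma adjusted p = 0.0642). It passed under a robust variance trend (limma adjusted p = 0.0283) and under voom (limma adjusted p = 0.0248) and in no other of the 20 alternatives. Hsp90aa1 differed by -0.02 (95% interval -0.16 to 0.12) and Hsp90b1, the endoplasmic reticulum paralog Grp94, by 0.06 (95% interval -0.09 to 0.22). The difference of Hsp90ab1 from its paralogs was not tested.

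**Figure D3:**
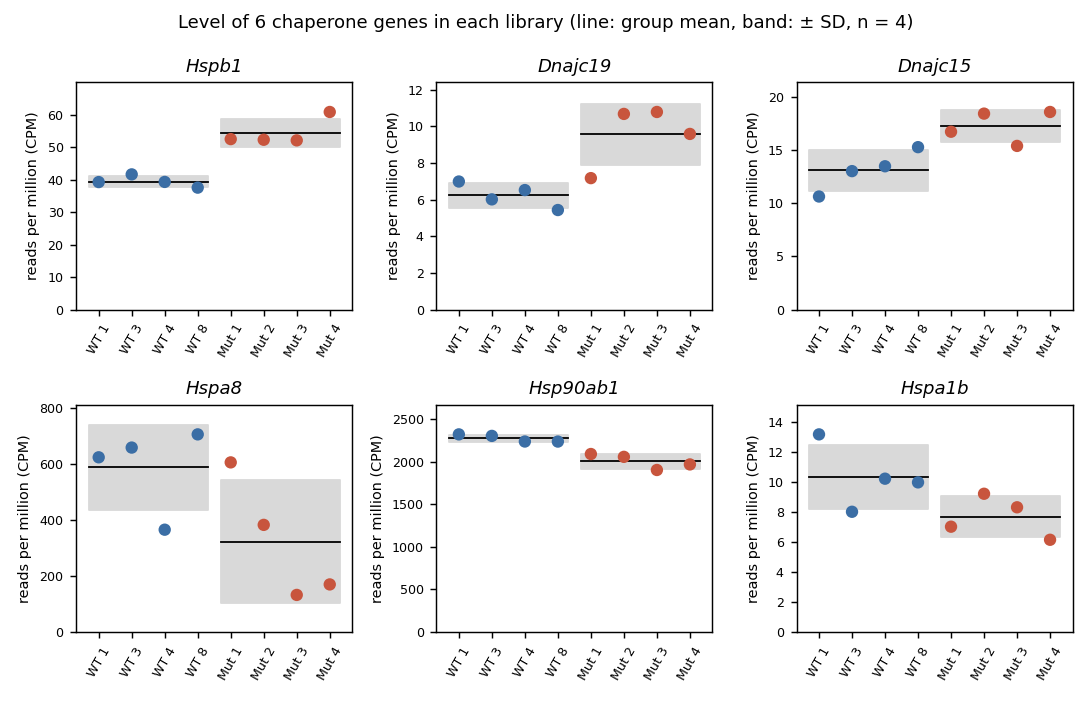
Level of Hspb1, Dnajc19, Dnajc15, Hspa8, Hsp90ab1 and Hspa1b (y axis, CPM) in each library (x axis; WT, wild type; Mut, mutant), with the group mean as a line and ± SD as a band (n = 4). The mutants lie above all wild types for Hspb1, Dnajc19 and Dnajc15 and below them for Hsp90ab1, while the groups overlap for Hspa8 and Hspa1b.

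The mitochondrial chaperonin genes Hspd1 (Hsp60) and Hspe1 (Hsp10), which overlap at their starts on opposite strands, did not pass. Hspd1 was 79.5 to 90.3 CPM in wild types and 74.1 to 90.8 CPM in mutants (-0.04, 95% interval -0.19 to 0.12). Hspe1 was 9.68 to 13.1 CPM and 12.3 to 14.01 CPM (0.22, 95% interval -0.04 to 0.49; limma adjusted p = 0.329). The ranges overlapped for each.

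Dnajc19 was the J-protein gene that rose. Dnajc19 (ENSMUSG00000027679; chromosome 3, 34056020 to 34081321, minus strand) encodes a J-protein of the inner mitochondrial membrane that works with the import motor. Its level was 6.99, 6.01, 6.52 and 5.43 CPM in wild types and 7.17, 10.7, 10.8 and 9.58 CPM in mutants. Mutant 1 lay just above wild type 1, and the other mutants well above every wild type. The means were 6.24 ± 0.669 and 9.55 ± 1.68 CPM (SD, n = 4), a difference of 0.58 (SE 0.16; limma adjusted p = 0.0487) from 43 to 70 reads a library. It passed in 5 of 20 alternatives, with limma adjusted p from 0.0280 to 0.212 and differences of 0.46 to 0.71. Without any one of wild types 1, 3, 4 and 8 or mutants 2, 3 and 4 the call was lost (limma adjusted p of 0.0566 to 0.124). The gene overlaps Fxr1 on the other strand, and whether reads were counted by strand is not given in the sources used here. Its copy Dnajc19-ps had at most 0.429 CPM.

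Dnajc15, the paralog of Dnajc19 at the same membrane, did not pass. It was 10.6, 13.0, 13.5 and 15.3 CPM in wild types and 16.7, 18.4, 15.4 and 18.6 CPM in mutants. The lowest mutant lay just above the highest wild type. The difference was 0.40 (SE 0.124; limma adjusted p = 0.0766), and none of the 20 alternatives called it (limma adjusted p of 0.0529 to 0.211). Dnajc25 also had groups that did not overlap, at 1.75 to 2.27 and 2.43 to 3.29 CPM, with 12 to 23 reads a library (0.39, SE 0.21; limma adjusted p = 0.313). The gene overlaps Gm20503 on the same strand, so how reads were divided between them is uncertain. Of the 26 tested Dnajc genes, 6 (23.1%) had groups that did not overlap, 5 higher and 1 lower. The higher were Dnajc11, Dnajc15, Dnajc19, Dnajc25 and Dnajc27, and the lower was Dnajc6. Over all tested genes the share was 12.4%, with 1127 higher and 739 lower.

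The J-proteins of synaptic and clathrin-coated vesicles, which act with Hspa8, did not pass. Dnajc5, the cysteine string protein of synaptic vesicles, was 355, 353, 336 and 327 CPM in wild types and 341, 353, 351 and 355 CPM in mutants (0.03, 95% interval -0.08 to 0.14). Dnajc6, the neuronal auxilin that calls Hsc70 to clathrin coats, was 303, 325, 297 and 315 CPM in wild types and 275, 282, 289 and 291 CPM in mutants. Every mutant was below every wild type for Dnajc6, by a small amount (-0.13, SE 0.0509; limma adjusted p = 0.166).

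None of the tested Dnaja and Dnajb genes passed. Dnajb1, the inducible partner of Hsp70, was 50.2 to 61.6 CPM in wild types and 48.2 to 67.4 CPM in mutants (0.13, 95% interval -0.08 to 0.34). Dnaja1 and Dnaja2, the farnesylated partners of Hsc70, differed by -0.13 (limma adjusted p = 0.385) and 0.02 (limma adjusted p = 0.918). Dnajb14, an endoplasmic reticulum membrane J-protein and the highest Dnajb gene in CPM, differed by 0.05 (95% interval -0.06 to 0.16). Matches to 150 other annotated genes were at most 211 bases long, where Dnajb14 has 15741 bases of annotated exon. The origin of reads from such stretches is uncertain. Dnajb3 had the widest difference of its family, 0.65, from 2 to 12 reads a library (limma adjusted p = 0.348). It overlaps Gm20528 on the same strand and several Ugt1a genes on the other. Luminal J-proteins Dnajb9 and Dnajc3, targets of the unfolded protein response, differed by 0.15 (95% interval -0.12 to 0.42) and -0.09 (95% interval -0.25 to 0.08).

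**Figure D4:**
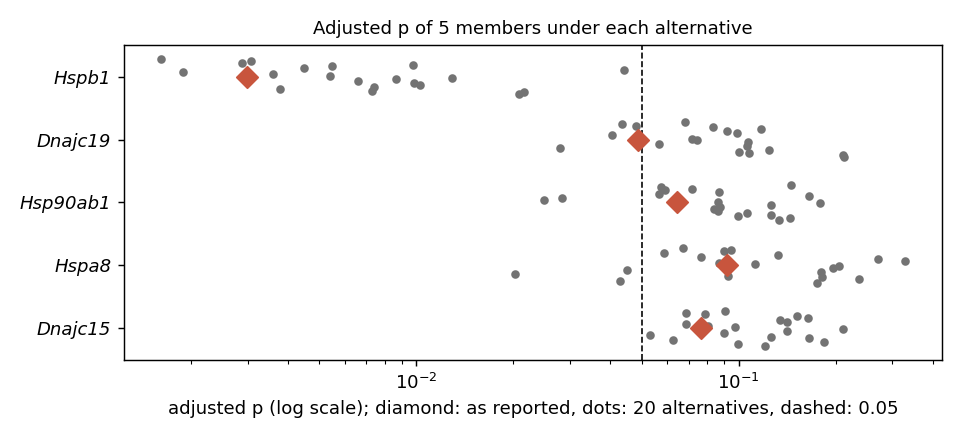
Adjusted p (x axis, log scale) of 5 members (y axis) as reported (diamond) and under each of 20 alternatives (dots), with 0.05 as a dashed line. All dots of Hspb1 lie below 0.05, those of Dnajc19 lie on either side with 5 below, and those of Dnajc15 all lie above it.

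Genes that work with these chaperones were counted from lists. None of the 4 tested genes of the heat shock factor list passed (median -0.04), and Hsf1 itself differed by -0.13 (limma adjusted p = 0.434). The 8 genes of the cytosolic chaperonin TRiC, the 19 of the endoplasmic reticulum unfolded protein response and the 4 of the mitochondrial stress response also had 0 calls in either direction, with medians of -0.02, 0.02 and 0.08. Of 30 tested co-chaperones 1 rose and 1 fell, with a median of 0.02. Fkbp5, an Hsp90-binding immunophilin, was 77.2, 93.4, 52.9 and 77.8 CPM in wild types and 169, 146, 93.2 and 128 CPM in mutants (0.83, SE 0.169; limma adjusted p = 0.0118). Mutant 3 lay just below wild type 3 and the other mutants lay above every wild type. Bag2, an Hsc70 nucleotide exchange factor, was 20.8 to 24.3 CPM in wild types and 15.1 to 18.2 CPM in mutants (-0.41, SE 0.098; limma adjusted p = 0.0236), with no overlap. The limma adjusted p reached 0.119 for Fkbp5 and 0.0822 for Bag2 among 20 alternatives, of which 17 and 13 called them.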

How the data were processed

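Total RNA of dorsal root ganglia from 4 wild-type and 4 mutant mice was read as single-end libraries of 150 bases, per the labels' protocols. Values were deposited by the authors as moderated log2 CPM (log2 of reads scaled to library size with a small prior count), per the file headers, in 1 table that also gives a deposited GC percent per gene, used only to remove a GC trend. Salmon 0.11.1, DESeq2 and mm9 are named in the submitters' processing notes, with no role or order.

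The table had 41422 lines and 40800 gene identifiers, of which 402 were repeated with identical values and used once. Removing the floor of -1.79 gave whole reads for 100% of low values in every library (tolerance 0.05 read), with a prior count averaging 2 reads. Same-genotype libraries differed beyond sampling noise (chi-square over its degrees of freedom 2.74 to 7.16, in 12308 genes). Mutant was compared with wild type by limma 3.58.1 in R 4.3.3 (lmFit, eBayes with a mean-variance trend), with no covariate, two-sided, over 15030 genes. A gene was called at an adjusted p under 0.05. Exact permutation used all 70 assignments (smallest p 0.0286). The procedure was tested on simulated data.

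Members, lists and tests were chosen with earlier results of these data known. Named members were those called, those with non-overlapping groups and a difference of at least 0.3, the most abundant and the most different of each family, and classical stress reporters, 28 in all. Marker lists were described by counts, medians and summed levels, and partner lists by counts and medians. Positions and exon lengths were looked up by identifier in GENCODE M21 (GRCm38) and are not the build the authors named. Copies were found with blastn 2.17.0 (95% identity over 150 bases). Alternatives covered filters, scaling, variance model, Xist as a covariate, single libraries, a replicate block and thresholds. Python 3.11.15, numpy 2.4.6, pandas 2.3.3, scipy 1.17.1 and matplotlib 3.10.9 were used.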

Additional observations from a re-analysis of the deposited data

Results flagged for a closer look

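In 2 of 56 groups of 4 libraries (28 named members, each genotype), 1 library lay far from the other 3 by Dixon's criterion, which chance gives in about 1 in 20 groups, or 2.8 of 56. Hspb1 in mutant 4 was at a log2 CPM of 5.93, and the other mutants at 5.71 to 5.72. Hspb2 in mutant 2 was at -0.10, and the other mutants at 0.57 to 0.66.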

How the results depend on the processing

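Hspb1 was called higher in each of 20 alternatives in which samples, filter, scaling or variance model changed. The number of members called higher went from 2 to 1 with no filter, median centring, quantile normalization, removal of the GC trend, no variance trend and Xist as a covariate, where Dnajc19 was lost, and to 1 with a minimum difference of 0.5, where Hspb1 was. Leaving out single libraries gave 1 to 2 members higher and 0 to 1 lower. The number called lower went from 0 to 1 (Hsp90ab1) under a robust variance trend and under voom, which was chosen after seeing the data, and to 2 (with Hspa8) at an adjusted p under 0.1, where the number called higher was 3 (with Dnajc15). Without the variance trend 67 genes of the whole table were higher and 75 lower. For these changes the cause was not tested.

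The genotypes share the numbers 1, 3 and 4. Same-numbered libraries deviated from their group means with correlations of 0.081, 0.041 and 0.058. Those of differently numbered libraries ran from -0.2 (wild type 1 with mutant 4) to 0.105 (wild type 1 with mutant 3). With a replicate block on these 6 samples 1 member was higher (Hspb1) and 1 lower (Hspa8, -1.15), and without the block 1 was higher and 0 lower. Over all genes the block gave 303 higher and 333 lower, against 177 and 266 without it.

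Of 556 values for the 28 named members under alternatives, 499 kept direction and side of the threshold, 15 lost the call (Dnajc19), 5 gained one (Hspa8 and Hsp90ab1) and 37 changed sign, all of members near 0 that were not called. Under median centring and after GC removal these were Dnaja2 (-0.074 and -0.058), Dnajb14 (-0.043 and -0.023), Dnajc5 (-0.062 and -0.038), Hsp90b1 (-0.028 and -0.0063), Hspa12a (-0.052 and -0.0062), Hspa5 (-0.080 and -0.048) and Hspa9 (-0.046 and -0.030). Hsp90aa1 was 0.032 under quantile normalization and 0.023 in the 6 samples with or without the block. Hspa1a was 0.046 with Xist as a covariate and 0.12 in the 6 samples, where Hspa5 was -0.024. Without single libraries Dnaja2 ran from -0.026 to 0.079, Hsp90aa1 from -0.072 to 0.020, Hspa1a from -0.16 to 0.10, Hspa5 from -0.025 to 0.091, Hspd1 from -0.076 to 0.021 and Hsph1 from -0.11 to 0.022.

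Family medians moved by more than the spread between libraries under median centring to -0.11 (Hsp90), -0.08 (Hsp70 with Hsp110), -0.09 (Dnaja), -0.02 (Dnajb) and 0.01 (Dnajc), under quantile normalization to -0.01 (Dnajb) and 0.06 (Dnajc), after GC removal to -0.05 (Hsp70 with Hsp110) and 0.04 (Dnajc), and in the 6 samples to 0.37 (small heat shock proteins). The deposited values are log2 and not counts. The planned edgeR and DESeq2 fits on recovered reads were not run, and voom, which was not planned, was run on those reads. Under the stricter filter Dnajb3, Dnajc25, Hspb2 and Hspb7 gave no value. Depth limits these genes, with 2 to 23 reads a library.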

Other observations

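The order of the libraries in Hspa8 was compared with that in all other tested genes, a listing chosen after the Hspa8 values were seen. Of the 100 genes with the largest absolute Pearson correlation of log2 CPM with Hspa8 over the 8 libraries, 14 lay on chromosome 9, which holds Hspa8 and 5.77% of tested genes with a position, and the next chromosome had 9. Within 10 megabases of Hspa8 lay 7 of the 100, where 0.97% of tested genes lie. They were Nxpe2, Ubash3b, Ncam1, Nlrx1, Htr3a and Rnf26, in the same direction as Hspa8, and Tmem218 in the opposite one. All 8 points share library and genotype with Hspa8, so this is a description. Both genotypes are labelled C57BL/6, and whether the libraries differ in genetic background in this region was not tested.

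Nxpe2 was 11.9, 11.9, 7.70 and 12.9 CPM in wild types 1, 3, 4 and 8 and 9.86, 7.12, 4.93 and 4.58 CPM in mutants 1 to 4 (-0.76; limma adjusted p = 0.0652). As for Hspa8, wild type 4 was the lowest wild type and mutants 3 and 4 were the lowest of all. Nxpe2, Nlrx1 and Ubash3b were picked because they followed Hspa8 over these same libraries. A like order of libraries and a like genotype difference therefore come with that choice. Nlrx1, a mitochondrial member of the NOD-like receptor family, was 17.8, 16.3, 15.7 and 21.1 CPM in wild types and 13.1, 14.2, 6.31 and 8.87 CPM in mutants, and it passed (-0.78; limma adjusted p = 0.0399). Ubash3b was 378 to 430 CPM in wild types and 321 to 384 CPM in mutants (-0.24; limma adjusted p = 0.0501).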
